A study of Rattus norvegicus with 13 samples.

Results

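The 10 genes described here, Tp63, Sox9, Cebpd, Bmi1, Cdh3, Lrig1, Abcg2, Abcb5, Gpha2 and Ifitm3, have been linked to limbal epithelial progenitors. They are 10 of the 28357 gene rows of the day 3 libraries and were matched by symbol. They were selected on the day 3 comparison of spironolactone with vehicle, as a set whose members differed in both directions. Their day 3 differences are therefore given as a description, with no test. RNA was sequenced from peripheral cornea with the adjoining limbus and sclera of male wild-type Lewis rats aged 2 months. Both day 3 groups carried the same injury model, limbal stem cell deficiency, in which the cornea loses its epithelial progenitors and new vessels enter it. The spironolactone group (n = 3 libraries) received 25 mg/kg/day by daily subcutaneous injection for 3 days, and the vehicle group (n = 3 libraries) received 90% olive oil with 10% DMSO. Spironolactone is a synthetic steroid that blocks the mineralocorticoid receptor. The labels do not say whether each library came from its own animal, so every spread and p-value here measures the variation between these libraries. The series holds 13 libraries in all, and those of day 7 were not used here.

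The corneal epithelium is renewed from stem and progenitor cells in the basal layer of the limbus, the rim between cornea and conjunctiva. The transcription factor p63, encoded by Tp63, is needed for stratified epithelia to form and is abundant in basal limbal cells. The other genes cover chromatin repression, quiescence, adhesion, growth factor signalling, drug efflux, a hormone subunit and an interferon-induced membrane protein. Several of them are also expressed outside the epithelium.

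The 6 libraries held 18.2 M to 25.3 M estimated counts each. Values are given as normalised counts (CPM, scaled by the trimmed mean of M-values) for comparison between libraries, and as the deposited TPM values, which correct for transcript length, for comparison between genes. The tissue carried strong epithelial signal, with a summed level of Epcam, Cdh1, Krt5, Krt14 and Perp of 11849 to 15042 CPM in the spironolactone libraries and 6356 to 9657 CPM in the vehicle libraries. Krt12, the defining keratin of corneal epithelium, was low, at 11.1, 11.4 and 12.2 CPM in the spironolactone libraries and 7.80, 8.42 and 12.01 CPM in the vehicle libraries. The conjunctival keratin Krt4 was far above it, at 3912, 5079.6 and 4316 CPM in the spironolactone libraries and 2022, 2274 and 3133 CPM in the vehicle libraries. Krt12 had the lowest mean of the 10 tested genes in the list of corneal epithelial differentiation described below. Aldh3a1 of that list had 453, 380.0 and 379.8 CPM in the spironolactone libraries and 260, 279 and 368 CPM in the vehicle libraries. The libraries also held pigment cell, retina, muscle and stromal RNA. The 5 retina markers summed to 2587, 3300.3 and 179.5 CPM in the spironolactone libraries, against 3889 to 4335 CPM in the vehicle libraries, so spironolactone replicate 3 stood apart. The 5 lens markers summed to 67.1 to 77.4 CPM in the spironolactone libraries and to 79.7, 115 and 495 CPM in the vehicle libraries, where vehicle replicate 3 stood apart. Values without both of these libraries are given below wherever they changed a member's difference by more than 1.5 times or its direction.

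The receptor that spironolactone blocks can bind DNA at a palindrome of AGAACA arms, and the promoter sequences of the members were searched for it. Of the 10 members, 7 had a promoter in the RefSeq table of assembly GRCr8, and the 250 bases before each start were read on both strands. The palindrome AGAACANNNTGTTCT was in 0 of the 7 members and in 0.012% of 33469 promoters. The single hexamer AGAACA, which forms each arm of that palindrome, was in 3 of the 7 members and in 17.5% of all promoters. The GC box GGGCGG was in 4 of the 7 and in 30.5% of all. The 3 promoters with the hexamer are shown. They belong to a member with higher values after spironolactone (Tp63), one with lower values (Bmi1) and one whose groups overlapped (Ifitm3). Whether the hexamer bears on these differences was not tested. Capitals mark the hexamer, which lies 122 bases before the start in Tp63, 125 in Bmi1 and 11 in Ifitm3. In GRCr8 the windows are chr11:88554178-88554427 on the minus strand, chr17:86243994-86244243 on the plus strand and chr1:205541759-205542008 on the minus strand. The Tp63 window belongs to a start 366 bases from the annotated 5′ end of a gene of 210897 bases. The N-terminally truncated p63 that dominates in basal epithelium is known to start from an internal promoter, which this window does not cover.
Tp63: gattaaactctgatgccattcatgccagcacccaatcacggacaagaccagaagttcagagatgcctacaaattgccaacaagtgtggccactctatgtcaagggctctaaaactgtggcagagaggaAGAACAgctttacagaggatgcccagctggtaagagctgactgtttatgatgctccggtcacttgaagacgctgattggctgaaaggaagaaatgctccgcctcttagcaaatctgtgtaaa
Bmi1: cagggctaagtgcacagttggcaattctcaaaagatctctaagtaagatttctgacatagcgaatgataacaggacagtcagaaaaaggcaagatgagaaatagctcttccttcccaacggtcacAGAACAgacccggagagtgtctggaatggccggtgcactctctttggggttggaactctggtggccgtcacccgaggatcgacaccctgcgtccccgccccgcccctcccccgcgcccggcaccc
Ifitm3: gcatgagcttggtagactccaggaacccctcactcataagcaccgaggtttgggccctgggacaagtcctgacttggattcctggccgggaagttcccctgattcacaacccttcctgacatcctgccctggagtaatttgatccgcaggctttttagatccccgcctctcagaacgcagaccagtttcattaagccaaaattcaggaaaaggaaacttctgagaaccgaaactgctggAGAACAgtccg
A match of letters is a description of the sequence and does not show that the receptor binds there.

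In level the members spanned several orders of magnitude. By mean TPM over the 6 libraries, Ifitm3 was highest at 1254 and Cdh3 followed at 75.9. Lrig1 at 41.5, Cebpd at 41.4, Bmi1 at 39.2 and Tp63 at 35.3 lay close together, and their ranges over the 6 libraries overlapped. Sox9 at 13.2, Abcg2 at 6.75 and Gpha2 at 4.04 came next in separate ranges, and Abcb5 was lowest at 0.11. Of the 10, 9 passed the filter on low counts, each with at least 10 reads in all 6 libraries, and Abcb5 did not. Of these 9, 5 had a positive and 4 a negative log2 fold change of spironolactone over vehicle, with a median of 0.05. Over all 14762 genes tested, 7139 were positive and 7623 negative, with a median of -0.01. The groups did not overlap in 4 of the 9, with Tp63 and Cdh3 higher and Bmi1 and Cebpd lower after spironolactone. Among all genes tested the groups did not overlap in 32%, with 16% higher and 16.1% lower. These shares over all genes also stand beside the counts of each gene list below. The members were selected on this contrast, so nothing is read from their share. The remaining 5 were Abcg2, Lrig1, Sox9, Gpha2 and Ifitm3.

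**Figure D1:**
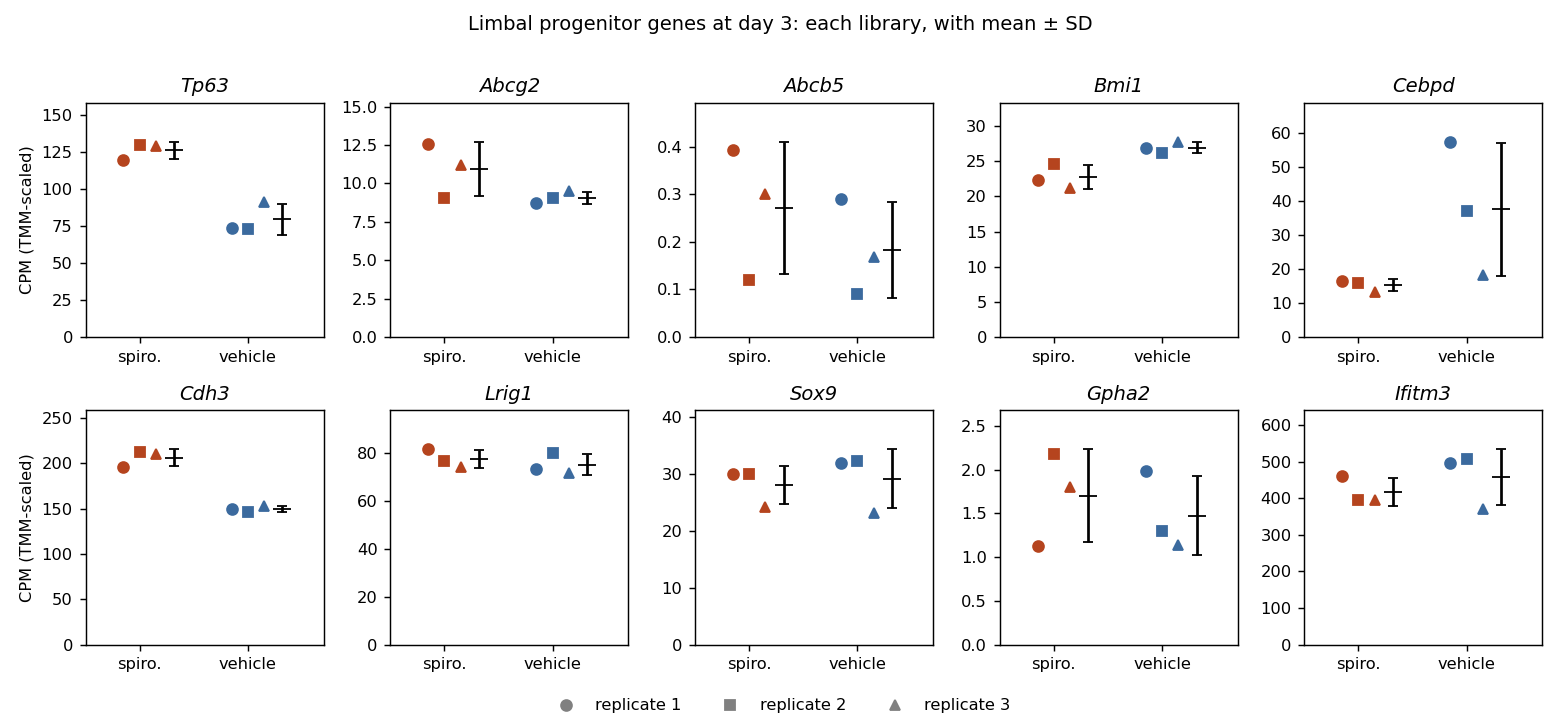
CPM of each of the 10 genes in every day 3 library (3 spironolactone libraries in red at left, 3 vehicle libraries in blue at right, symbols by replicate number), with the mean and SD beside each group and a separate vertical axis starting at 0 for each gene. Tp63 and Cdh3 lie higher and Bmi1 and Cebpd lower in all 3 spironolactone libraries, and the groups overlap in the other panels.

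Tp63 reached 119, 130 and 129 CPM in the spironolactone libraries, against 73.7, 73.0 and 91.0 CPM in the vehicle libraries. The lowest spironolactone library lay above the highest vehicle library, and vehicle replicate 3 was the nearest of its group. The means were 126 ± 5.67 CPM after spironolactone and 79.3 ± 10.2 CPM after vehicle (SD, n = 3 each), a log2 fold change of 0.67 (SE 0.095). On the TPM scale Tp63 was 40.1, 44.4 and 43.4 in the spironolactone libraries and 26.1, 25.8 and 31.9 in the vehicle libraries. These are gene-level values over 5 annotated transcripts and do not separate the full-length from the truncated forms of p63. The abundance-weighted transcript length of Tp63 was 4517, 4484 and 4488 bases in the spironolactone libraries and 4504, 4498 and 4471 bases in the vehicle libraries, so the groups overlapped in length.

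Most genes of a list of known p63 targets in basal epithelium were higher after spironolactone. The list was not split into activated and repressed targets. Of 13 tested, 12 had a positive log2 fold change, with a median of 0.59 beside -0.01 over all genes, and 9 were higher without overlap and 0 lower. The list includes Krt5, Krt14 and Perp, which are among 5 general epithelial markers below with a mean log2 difference of 0.69. None of the 13 passed edgeR's quasi-likelihood test with Benjamini-Hochberg adjustment at 0.05. That test called 0% of the 14762 genes, with 3332 at an unadjusted p under 0.05. The limma-voom test also called 0 genes, while DESeq2 called 1344. DESeq2 called 6.12% of genes higher and 3.55% lower among those with an adjusted p, and it called 9 of the 13 p63 targets higher. The list was chosen with earlier results known and shares genes with the epithelial markers, so nothing is read from these counts. Ripk4, a kinase of epidermal differentiation, had 101, 109 and 103 CPM in the spironolactone libraries and 56.5, 56.7 and 70.6 CPM in the vehicle libraries. Its log2 fold change was 0.77 (SE 0.095, edgeR adjusted p = 0.0649). Itgb4, the hemidesmosomal integrin subunit, had 388, 374 and 443 CPM after spironolactone and 280.3, 267 and 297 CPM after vehicle, a log2 fold change of 0.51 (SE 0.078, edgeR adjusted p = 0.0649). In both genes every spironolactone library lay above every vehicle library.

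In a list of relatives of p63 and their regulators, 2 of 4 tested genes were higher without overlap, the median log2 fold change was 0.15, and none passed the edgeR or the DESeq2 threshold. Tp73, the closest relative of p63, had 10.9, 13.0 and 16.0 CPM after spironolactone and 6.68, 4.30 and 10.5 CPM after vehicle, a log2 fold change of 0.89 (SE 0.32, edgeR adjusted p = 0.179). The genes nearest to Tp63 across the 6 libraries, by mean absolute difference of log2 CPM centred per gene among 13862 genes, were Cst6 (0.0185), Acpp (0.0272), Ppp1r13l (0.03), S100a11 (0.032) and Ramp1 (0.034). Cst6 encodes a cystatin protease inhibitor of stratified epithelia. Cst6 had 36.4, 38.7 and 39.4 CPM after spironolactone and 22.2, 22.3 and 28.9 CPM after vehicle. All 5 had their highest vehicle value in vehicle replicate 3, as Tp63 did, which follows from choosing them by likeness over these libraries.

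Cdh3 encodes P-cadherin, the adhesion molecule of basal epithelial cells, and was the other member with higher values. It had 196, 212 and 211 CPM in the spironolactone libraries, against 149.7, 147 and 153 CPM in the vehicle libraries. Both groups were tight and far apart relative to their spread. The means were 206 ± 9.16 CPM after spironolactone and 149.7 ± 3.08 CPM after vehicle (SD, n = 3 each), a log2 fold change of 0.46 (SE 0.053). Among the other classical cadherins and catenins, 5 of 10 were higher and 2 lower without overlap, with a median log2 fold change of 0.05, and DESeq2 called 5 higher and 1 lower. Cdh1, which encodes E-cadherin, had 426, 407 and 447 CPM after spironolactone and 273, 283 and 338 CPM after vehicle, a log2 fold change of 0.52 (SE 0.090, edgeR adjusted p = 0.0649). Jup, which encodes the junction protein plakoglobin, had 746, 968 and 1009.8 CPM after spironolactone and 478.5, 479 and 637 CPM after vehicle, a log2 fold change of 0.77 (SE 0.16, edgeR adjusted p = 0.0747). Ctnnd1, which encodes p120 catenin and stabilises cadherins at the membrane, had a log2 fold change of 0.29 (SE 0.061, edgeR adjusted p = 0.0747). Cdh2, which encodes N-cadherin and has been reported in limbal progenitors, went the other way, with 94.2, 109 and 73.0 CPM after spironolactone and 143, 171 and 125 CPM after vehicle. Its log2 fold change was -0.67 (SE 0.17, edgeR adjusted p = 0.101). Retina and skeletal muscle markers were also lower after spironolactone, and their part in the Cdh2 difference was not tested.

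General epithelial markers were also higher after spironolactone. The geometric mean of Epcam, Cdh1, Krt5, Krt14 and Perp was 1246, 1363 and 1430 CPM in the spironolactone libraries and 778, 738 and 999 CPM in the vehicle libraries, a mean log2 difference of 0.69, or 1.62-fold. In bulk tissue, a different number of epithelial cells and a different amount of RNA per cell cannot be told apart. Tp63 as a percentage of this epithelial mean was 9.59%, 9.50% and 9.01% in the spironolactone libraries and 9.47%, 9.90% and 9.11% in the vehicle libraries, so the groups overlapped. Relative to the epithelial mean, the log2 differences were -0.02 for Tp63, -0.23 for Cdh3, -0.44 for Abcg2, -0.50 for Gpha2, -0.65 for Lrig1, -0.74 for Sox9, -0.82 for Ifitm3, -0.94 for Bmi1 and -1.86 for Cebpd. This scaling lowers each gene's difference in mean log2 CPM by 0.69. The edgeR fold change is fitted to counts and is another statistic, and beside it Cebpd moved less than the other members, from -1.31 to -1.86. Among 14703 genes with counts in all 6 libraries, 98.1% were negative, with a median of -0.70. Of the 9 members 0 were positive. Bmi1, Cebpd, Lrig1 and Ifitm3 lay below the vehicle range in all spironolactone libraries, as did 86.5% of all genes tested, so nothing is read from their count. Ifitm3 barely cleared the vehicle range, at 37.012% of the epithelial mean in its highest spironolactone library and 37.016% in its lowest vehicle library. Krt5, Krt14 and Perp are themselves known p63 targets, so a second scaling by Epcam and Cdh1 alone was added after the values were seen. Relative to these, Tp63 had a log2 difference of 0.15, Cdh3 had -0.06, and the other 7 were negative. For Tp63 the spironolactone libraries were all higher, as in 0.291% of genes tested, but spironolactone replicate 1 barely cleared vehicle replicate 3. Tp63 was selected on this contrast, so nothing is read from that share. Bmi1, Cebpd, Lrig1 and Ifitm3 were again lower without overlap, as were 82.1% of genes tested. The median over all genes was -0.53 on this scale, with 96.1% of genes negative.

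**Figure D2:**
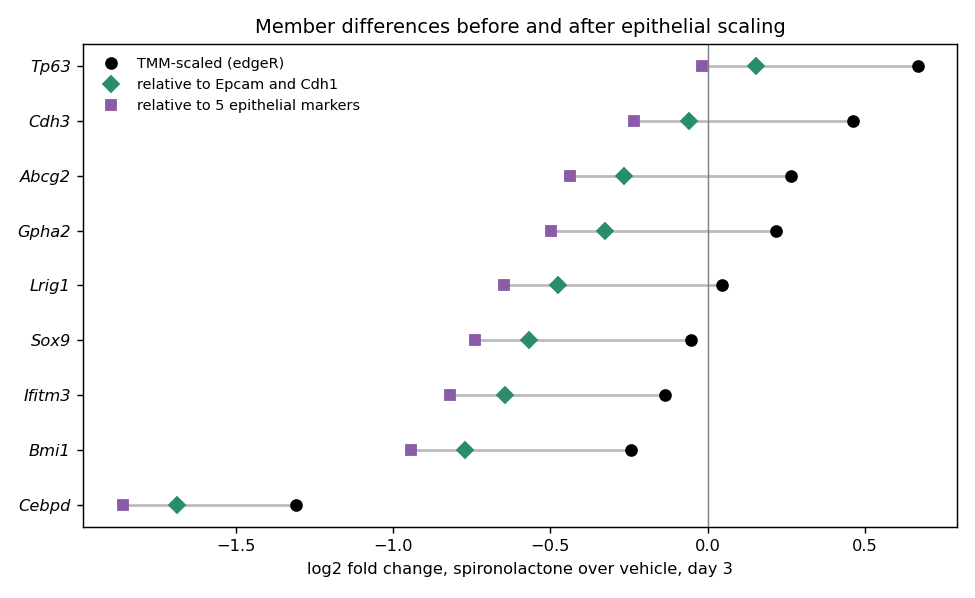
Log2 fold change of spironolactone over vehicle at day 3 for the 9 members that passed the filter, with library scaling (black circles), relative to Epcam and Cdh1 (green diamonds) and relative to 5 epithelial markers (purple squares). The black circles are edgeR fold changes, and the diamonds and squares are differences of mean log2 values. Each epithelial scaling places all 9 genes further left, by nearly the same amount except for Cebpd, which moves less. Tp63 stands at 0.67, 0.15 and -0.02 on the 3 scales.

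Bmi1, a Polycomb protein that represses cell cycle inhibitor genes and supports self-renewal, was lower after spironolactone. It had 22.3, 24.6 and 21.3 CPM in the spironolactone libraries, against 26.9, 26.2 and 27.8 CPM in the vehicle libraries. The groups did not overlap but lay close, with spironolactone replicate 2 nearest to the vehicle range. The means were 22.7 ± 1.71 CPM after spironolactone and 27.0 ± 0.790 CPM after vehicle (SD, n = 3 each), a log2 fold change of -0.25 (SE 0.076), or -0.17 without both replicates 3. Of 18 other Polycomb genes tested, 11 were positive and 7 negative, with a median log2 fold change of 0.06, and 3 were higher and 0 lower without overlap. Cbx2, which reads the Polycomb histone mark, had 11.2, 14.4 and 12.8 CPM after spironolactone and 8.59, 9.09 and 9.82 CPM after vehicle. Its log2 fold change was 0.48 (SE 0.12, edgeR adjusted p = 0.0872). Cbx6 and Phc1, also Polycomb components, had log2 fold changes of 0.11 (edgeR adjusted p = 0.376) and 0.07 (edgeR adjusted p = 0.442). Without spironolactone replicate 2 these were 0.034 for Cbx6 and 0.041 for Phc1.

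Cell cycle inhibitors include known targets of Bmi1 repression. Of 5 tested, 1 was higher without overlap and 0 lower, and the median log2 fold change was 0.00. Cdkn2b, which encodes the inhibitor p15, had 51.9, 68.1 and 59.0 CPM after spironolactone and 27.2, 29.7 and 41.6 CPM after vehicle, a log2 fold change of 0.86 (SE 0.18, edgeR adjusted p = 0.0758). Its neighbour Cdkn2a, the best known gene repressed by Bmi1, did not pass the filter on low counts.

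Cebpd encodes C/EBP delta, a transcription factor tied to quiescence of limbal stem cells in human work and to acute inflammation in many tissues. It had 16.3, 15.9 and 13.1 CPM in the spironolactone libraries, against 57.3, 37.0 and 18.1 CPM in the vehicle libraries. The spironolactone libraries were close together, while the vehicle libraries spread 3.16-fold from lowest to highest, and vehicle replicate 3 lay just above the spironolactone range. The means were 15.1 ± 1.77 CPM after spironolactone and 37.5 ± 19.6 CPM after vehicle (SD, n = 3 each), a log2 fold change of -1.31 (SE 0.42). Without vehicle replicate 1 it was -0.86. Of 6 other genes of the C/EBP family, 1 was higher and 0 lower without overlap, with a median log2 fold change of -0.05. Cebpa, a factor of epithelial differentiation, had 45.6, 53.4 and 61.3 CPM after spironolactone and 35.8, 31.2 and 44.2 CPM after vehicle. Its log2 fold change was 0.53 (SE 0.16, edgeR adjusted p = 0.123).

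The genes nearest to Cebpd by the same measure, a comparison added after its values were seen, were Ptprn (0.15), Ptgs2 (0.162), Socs3 (0.18), Mmp13 (0.18) and Gadd45g (0.185). Ptgs2 encodes the inducible prostaglandin synthase, Socs3 an inhibitor of cytokine signalling and Mmp13 a collagenase. Socs3 had 10.1, 11.2 and 10.3 CPM after spironolactone and 50.8, 29.6 and 10.9 CPM after vehicle, so vehicle replicate 3 lay inside the spironolactone range. Ptgs2 had 35.5, 22.4 and 21.2 CPM after spironolactone and 82.6, 62.5 and 31.7 CPM after vehicle. In both genes, as in Cebpd, vehicle replicate 1 was highest and vehicle replicate 3 lowest among the vehicle libraries. Both were chosen by likeness to Cebpd over these libraries, so nothing is read from the shared order. The distances were larger than those of the genes nearest to Tp63.

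**Figure D3:**
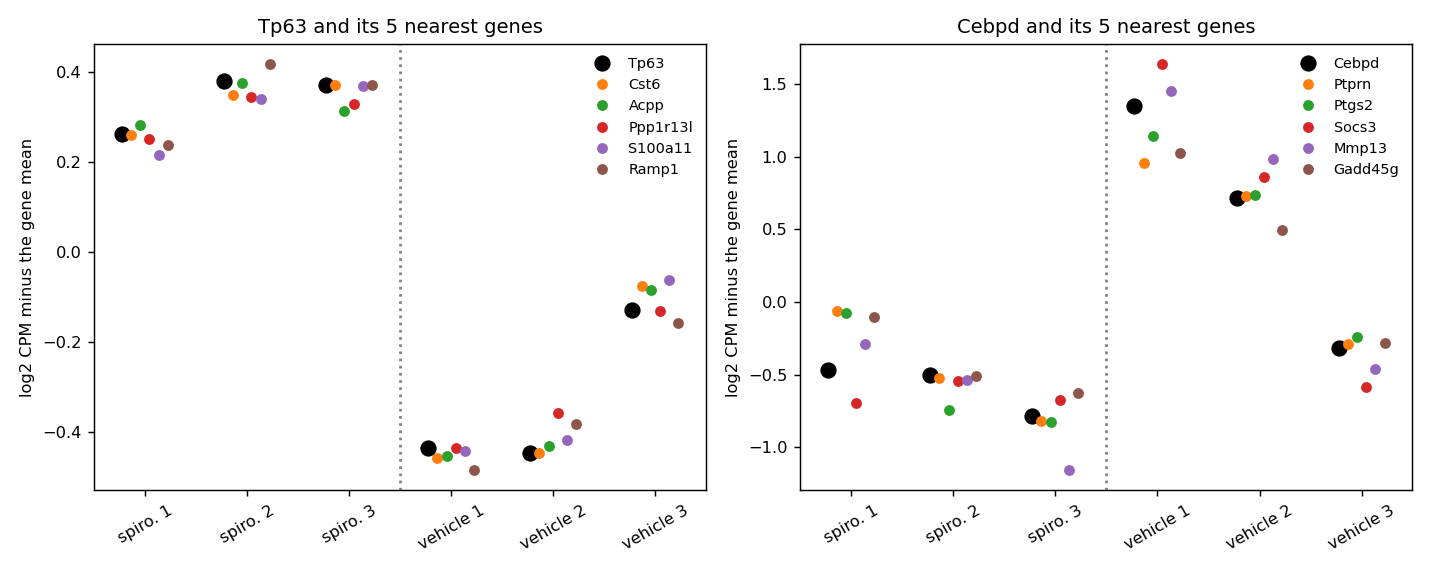
Log2 CPM minus each gene's mean in the 6 day 3 libraries (3 spironolactone libraries left of the dotted line, 3 vehicle libraries right of it) for Tp63 with its 5 nearest genes and for Cebpd with its 5 nearest genes, each gene in its own colour. The Tp63 genes lie within a narrow band in each library, and the Cebpd genes lie high in vehicle replicates 1 and 2 and low in vehicle replicate 3. The genes were chosen by likeness over these libraries, so nothing is read from the shared patterns.

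Sox9, a transcription factor of progenitors in several epithelia, cartilage and other tissues, did not separate the groups. It had 29.9, 29.97 and 24.2 CPM in the spironolactone libraries and 31.9, 32.3 and 23.1 CPM in the vehicle libraries. Replicate 3 was the lowest of both groups. It had a log2 fold change of -0.05 (SE 0.15), which was -0.18 without vehicle replicate 3, -0.10 without spironolactone replicate 1 or without both replicates 3, -0.11 without spironolactone replicate 2, and turned to 0.04 without spironolactone replicate 3, 0.02 without vehicle replicate 1 and 0.04 without vehicle replicate 2. Cartilage markers, which can accompany Sox9, summed to 16.6 to 24.6 CPM after spironolactone and 29.2 to 38.9 CPM after vehicle, and their part in the Sox9 level was not tested. Of 13 other SOX genes, 3 were positive and 10 negative, with a median log2 fold change of -0.18, and 2 were higher and 2 lower without overlap. Sox15, an epithelial SOX gene, had a log2 fold change of 0.50 (SE 0.097, edgeR adjusted p = 0.0735). Sox21, which acts in hair and epithelial differentiation, had 0.91 (SE 0.24, edgeR adjusted p = 0.103). Sox18, a factor of vessel endothelium, had -0.60 (SE 0.16, edgeR adjusted p = 0.101). Blood endothelial markers summed to 214 to 265 CPM after spironolactone and 272 to 361 CPM after vehicle, and their part in the Sox18 difference was not tested.

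Lrig1, a membrane protein that restrains ErbB receptors and marks quiescent epithelial stem cells, was even between the groups. It had 81.4, 76.6 and 74.3 CPM in the spironolactone libraries and 73.4, 79.9 and 71.6 CPM in the vehicle libraries. The groups overlapped, with means of 77.5 ± 3.64 CPM after spironolactone and 75.0 ± 4.38 CPM after vehicle (SD, n = 3 each). This was a log2 fold change of 0.05 (SE 0.063), or -0.01 on the TPM scale. It was 0.01 without spironolactone replicate 1, 0.08 without spironolactone replicate 3, 0.11 without vehicle replicate 2 and 0.03 without vehicle replicate 3. Of 6 other LRIG and ErbB genes, 4 were higher and 1 lower without overlap, with a median log2 fold change of 0.26, and DESeq2 called 3 higher. Erbb2, a receptor that Lrig1 restrains, had 50.2, 57.9 and 53.6 CPM after spironolactone and 36.3, 37.5 and 38.0 CPM after vehicle, a log2 fold change of 0.53 (SE 0.067, edgeR adjusted p = 0.0649). Erbb3, its partner receptor, had 0.33 (SE 0.055, edgeR adjusted p = 0.0649). Egfr, the epidermal growth factor receptor, had 0.31 (SE 0.066, edgeR adjusted p = 0.0747).

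Abcg2 encodes the efflux pump behind the side population phenotype of limbal stem cells. It had 12.6, 9.06 and 11.2 CPM in the spironolactone libraries and 8.71, 9.05 and 9.48 CPM in the vehicle libraries. Spironolactone replicates 1 and 3 lay above the vehicle range and replicate 2 lay within it. The log2 fold change was 0.27 (SE 0.13), with 0.39 without spironolactone replicate 2 and 0.16 without spironolactone replicate 1. Abcb5, a transporter that marks limbal stem cells in mouse and human work, was at the edge of detection, with 7, 3 and 6 reads in the spironolactone libraries and 7, 2 and 4 reads in the vehicle libraries. Pooled, this was 0.256 CPM after spironolactone (95% exact Poisson interval 0.146 to 0.415) and 0.185 CPM after vehicle (0.0987 to 0.317). The intervals, which cover counting error only, overlapped, and no difference was detectable at this depth. Of 18 other transporters of the B, C and G families, 3 were higher and 4 lower without overlap, with a median log2 fold change of -0.05. Abcc4, an exporter of cyclic nucleotides and prostaglandins, had 79.1, 90.0 and 92.7 CPM after spironolactone and 58.9, 65.8 and 70.5 CPM after vehicle, a log2 fold change of 0.42 (SE 0.089, edgeR adjusted p = 0.0747). Abcg1, a cholesterol exporter, had 63.7, 58.4 and 49.3 CPM after spironolactone and 80.9, 83.2 and 64.8 CPM after vehicle, a log2 fold change of -0.42 (SE 0.13, edgeR adjusted p = 0.129).

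Gpha2, a glycoprotein hormone subunit, and Ifitm3, an interferon-induced membrane protein, have been described as markers of quiescent limbal stem cells in the mouse outer limbus. Gpha2 was scarce, with 20, 54 and 36 reads in the spironolactone libraries and 48, 29 and 27 reads in the vehicle libraries. That was 1.13, 2.17 and 1.80 CPM after spironolactone and 1.99, 1.30 and 1.14 CPM after vehicle, and the groups overlapped. Pooled, Gpha2 was 1.76 CPM after spironolactone (95% exact Poisson interval 1.45 to 2.12) and 1.48 CPM after vehicle (1.21 to 1.80). The log2 fold change was 0.22 (SE 0.33), and it was -0.01 without spironolactone replicate 2 and 0.43 without spironolactone replicate 1. It was 0.50, 0.14 and 0.07 without vehicle replicate 1, 2 and 3 in turn, and 0.04 without both replicates 3. Its known receptor gene Tshr, the thyrotropin receptor, had 1.47, 1.93 and 0.800 CPM after spironolactone and 2.53, 3.40 and 2.28 CPM after vehicle. The log2 fold change of Tshr was -0.95 (SE 0.33, edgeR adjusted p = 0.164). It was 1 of 2 tested genes of the glycoprotein hormone list, both of them scarce and both lower without overlap.

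Ifitm3 was the most abundant member, with 461, 395 and 394 CPM in the spironolactone libraries and 496, 507 and 370 CPM in the vehicle libraries. Vehicle replicate 3 lay below all spironolactone libraries and the other vehicle libraries lay above them. The means were 417 ± 38.3 CPM after spironolactone and 458 ± 76.1 CPM after vehicle (SD, n = 3 each), a log2 fold change of -0.13 (SE 0.13). It was -0.25 without vehicle replicate 3, -0.22 without both replicates 3 and -0.21 without spironolactone replicate 1. It was -0.07 without vehicle replicate 1 and -0.04 without vehicle replicate 2. Of 3 relatives tested, 0 had groups apart, and the median log2 fold change was -0.19. Ifitm1 had 80.9, 58.1 and 58.4 CPM after spironolactone and 105, 107 and 66.1 CPM after vehicle, a log2 fold change of -0.49 (SE 0.23, edgeR adjusted p = 0.259). Ifitm2 had 187, 160.0 and 173 CPM after spironolactone and 221, 216 and 155 CPM after vehicle, a log2 fold change of -0.19 (SE 0.14, edgeR adjusted p = 0.457). The Ifitm2 value was -0.09, -0.10 and -0.32 without vehicle replicate 1, 2 and 3 in turn. Vehicle replicate 3 was the lowest vehicle library in both, as in Ifitm3. These genes are close copies and may share reads. Ifitm3 is also expressed in leukocytes and stroma. Leukocyte markers summed to 521 to 583 CPM after spironolactone and 577 to 711 CPM after vehicle, and their part in the Ifitm3 level was not tested.

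Genes of the limbal zones of mouse single-cell work, outside the 10 members, went both ways. Of 4 tested, 1 was positive and 3 negative, with a median log2 fold change of -0.39, and 1 was higher and 1 lower without overlap. In the other negative genes the groups overlapped. Krt15, a basal keratin of the limbus, had 2739, 2854 and 2340.0 CPM after spironolactone and 1427, 1837 and 2039 CPM after vehicle, a log2 fold change of 0.58 (SE 0.14, edgeR adjusted p = 0.0892). Atf3, a stress-response factor, had 6.54, 5.28 and 5.30 CPM after spironolactone and 9.71, 9.18 and 8.09 CPM after vehicle, a log2 fold change of -0.66 (SE 0.13, edgeR adjusted p = 0.0747). Of 10 other reported limbal markers, 3 were higher and 4 lower without overlap, with a median log2 fold change of 0.02. Krt14, a keratin of basal epithelium, was among the higher ones at 0.79 (SE 0.19, edgeR adjusted p = 0.0858). So was Krt19, a keratin of simple or conjunctival epithelium, at 0.38 (SE 0.10, edgeR adjusted p = 0.0998). Cdh2, described above, was among the 4 lower ones at -0.67 (SE 0.17, edgeR adjusted p = 0.101).

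Genes of corneal epithelial differentiation were mostly positive with library scaling. The list was not scaled by the 5 epithelial markers, whose mean log2 difference was 0.69. Of 10 tested, 8 were positive and 2 negative, with a median log2 fold change of 0.33, and 5 were higher and 0 lower without overlap. DESeq2 called the same number higher, 5. Elf3, an epithelial ETS factor, had a log2 fold change of 0.57 (SE 0.12, edgeR adjusted p = 0.0747). The Krüppel-like factors Klf5 and Klf4 had 0.50 (SE 0.12, edgeR adjusted p = 0.0833) and 0.35 (SE 0.061, edgeR adjusted p = 0.0649). Over all 14 lists together, 119 genes were tested, 66 were positive and 53 negative, and 38 were higher and 15 lower without overlap. DESeq2 called 30 of the 119 higher and 4 lower. Over all genes tested, 16% were higher and 16.1% lower without overlap. Among genes with an adjusted p, DESeq2 called 6.12% higher and 3.55% lower. The lists include the epithelial markers Cdh1, Krt5, Krt14 and Perp and were chosen with earlier results known, so nothing is read from these counts.

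**Figure D4:**
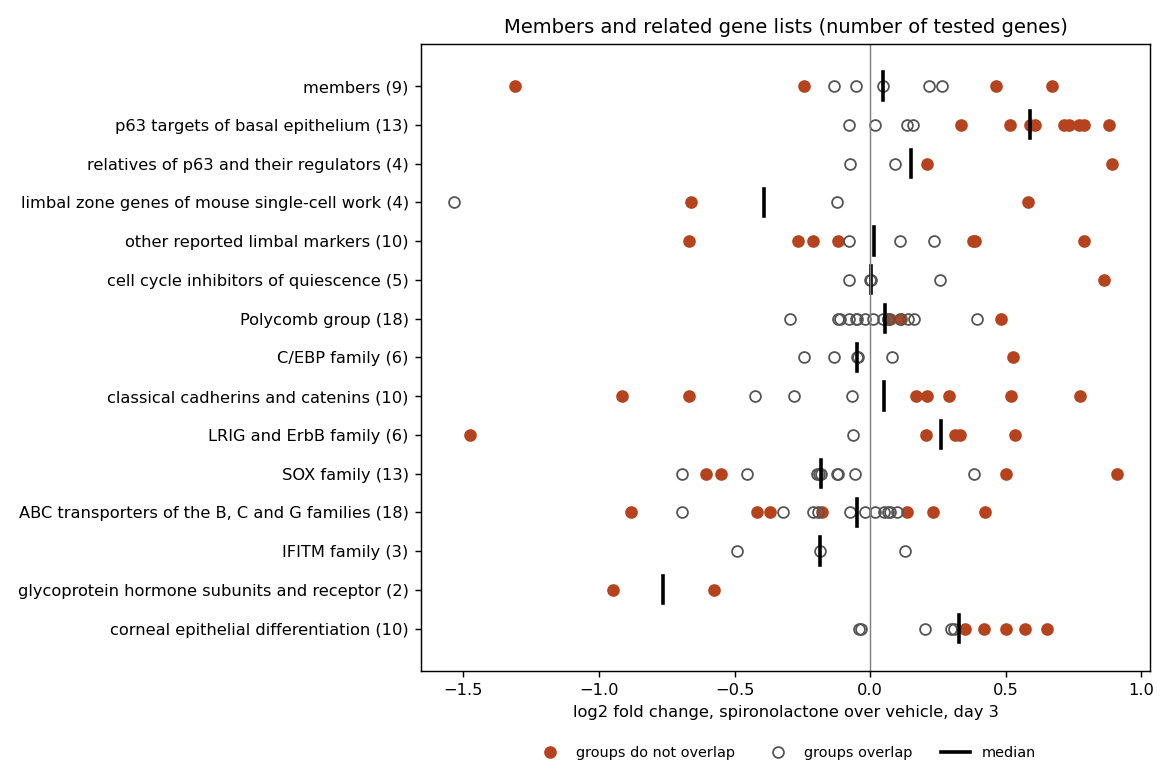
Log2 fold change of spironolactone over vehicle at day 3 for the 9 members tested and for the genes of 14 related lists, 1 point per gene, filled where the 3 spironolactone and 3 vehicle libraries do not overlap and open where they do, with the list median as a bar. The p63 targets lie mostly to the right with a median of 0.59, while the members spread to both sides with a median of 0.05. Members and lists were chosen with earlier results known, so nothing is read from this contrast.

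Markers of other cell types differed between the groups as well. The 6 skeletal muscle markers, led by Acta1, summed to 87.2 to 159 CPM after spironolactone and 291 to 618 CPM after vehicle, and all 6 were lower without overlap. All 5 retina markers and 2 of 5 lens markers were lower without overlap, and so was 1 of 4 cartilage markers. The 4 conjunctival and goblet cell markers summed to 10278 to 13782 CPM after spironolactone and 5508 to 8900.0 CPM after vehicle, with 3 higher without overlap. Of 5 blood endothelial markers, 3 were lower without overlap, and of 5 leukocyte markers 1 was. Melanocyte markers summed to 2879 to 3637 CPM after spironolactone and 3036 to 3328 CPM after vehicle, with 0 of 5 apart. Stromal markers summed to 8470.5 to 9071 CPM after spironolactone and 8684 to 10023 CPM after vehicle, with 0 of 5 apart. Schwann cell markers summed to 149.6 to 183 CPM after spironolactone and 133 to 175 CPM after vehicle, with 0 of 4 apart. None of the matched markers was at 0 in every library. The part of these cell types in the members' differences was not tested.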

How the data were processed

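Per the file headers, each day 3 file holds the authors' expected counts (estimated counts, not always whole), TPM values and transcript lengths per gene, in the column layout of RSEM. The submitters' processing notes name STAR 2.5.3a and RSEM 1.2.28 among other tools, and the builds rn6 and Rnor_6.0, without roles. Use of strand during counting was not given in the sources used here. Deposited counts were rounded; 1 row naming no gene held 0.12% to 0.181% of counts and was left out. Genes were filtered by expression (minimum count 10), scaled by TMM and tested with edgeR 4.0.16 in R 4.3.3 (quasi-likelihood, robust, Benjamini-Hochberg at 0.05 over all genes). Standard errors were derived from each log2 fold change and its F statistic. DESeq2 1.42.0 and limma 3.58.1 (voom) were alternatives, with no filter, a minimum of 1 CPM in 3 libraries, RLE scaling, offsets from effective lengths, a replicate block, libraries left out, deposited TPM (pseudocount 0.1) and epithelial scaling. DESeq2 gave no adjusted p for 864 genes. Libraries of 1 group differed by more than sampling noise, with a chi-square per gene of 7.94 to 23.8 over 6 pairs. The edgeR test was checked on simulated counts, and DESeq2 and limma-voom were not.

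The members and lists were chosen with earlier results of these data known. Of 139 list genes, 132 were matched and 119 tested. Named were, per list, genes past the edgeR threshold or, with none, up to 3 with the smallest p among those whose groups do not overlap and whose mean is at least 1 CPM, or, with none of these, up to 2 with the highest mean; and the 5 genes nearest to Tp63 (log2 CPM, prior count 2). Krt12, Aldh3a1, Cdkn2a, Ptgs2, Socs3 and the other genes nearest to Cebpd were named outside this rule, after their values were seen. Results for a few list genes are left out here. The day 7 files carry gene IDs that no source used here pairs with symbols, so day 7 was not used and its planned comparisons were not run.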

Additional observations from a re-analysis of the deposited data

How the results depend on the processing

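The number of genes past the edgeR threshold depended on the setting. It was 0 as reported and 0 with limma-voom, RLE size factors, a filter of 1 CPM, effective-length offsets and the replicate block. It was 1344 with DESeq2, 148 with no filter and 1040 without both replicates 3, and 0 to 781 with 1 library left out, namely 2 without spironolactone replicate 3, 40 without vehicle replicate 1 and 781 without vehicle replicate 3. The cause was not tested. Deviations of same-numbered libraries from their group means had correlations of 0.0898, -0.0845 and 0.0486. These values show no pairing by number, but with 3 libraries per group they cannot exclude it. Under the replicate block 5 members were positive as without it. The count of 5 positive members was 0 relative to 5 epithelial markers, 1 relative to Epcam and Cdh1, 4 on the TPM scale and 4 to 6 with 1 library left out. The number of members whose groups did not overlap was 4 as reported and 4 with RLE or TPM. It was 4 relative to 5 markers, where Tp63 and Cdh3 overlapped and Lrig1 and Ifitm3 did not, and 5 relative to Epcam and Cdh1. Epithelial scaling lowers nearly all genes by 0.69 or 0.52 and so turns small positive values by construction. Relative to 5 markers the values were negative for Tp63 (-0.019), Abcg2 (-0.44), Cdh3 (-0.23), Lrig1 (-0.65) and Gpha2 (-0.50), and relative to Epcam and Cdh1 for Abcg2 (-0.26), Cdh3 (-0.060), Lrig1 (-0.47) and Gpha2 (-0.33). Lrig1 was -0.012 on the TPM scale. With 1 library left out, Sox9 ran from -0.18 to 0.041 and Gpha2 from -0.0057 to 0.50. Bmi1 ran from -0.94 to -0.17 and Cebpd from -1.86 to -0.86 over 17 settings each. Of 462 values for 33 named list genes, 69 passed the threshold under an alternative and 0 turned direction. Abcb5 had at most 7 reads in a library. The day 7 alternatives were not run.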
